A study of Mus musculus with 10 samples.

Results

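Joint siRNA against FoxO1 and FoxO3 was compared with scramble siRNA in conditionally immortalized mouse renal proximal tubule cells that received Wnt3a and no H2O2. The values came from a joined list of 1637 genes that the authors had selected on 2 pairs of libraries, this one and the matching pair under H2O2. In the values themselves every listed gene differs by a log2 ratio above 0.5, up or down, in both pairs. Described here are the 266 of those 1637 genes that reached 1 FPKM in library 3, in library 4 or in both. Since the list was chosen on these same ratios, the sizes below are descriptions of the list and were not tested. The series holds 10 libraries with 1 library per group, and none of the differences could be set against a spread between replicates. Library 3 received scramble siRNA and library 4 received siRNA to FoxO1 and FoxO3. Both had Wnt3a at 20 ng/mL and no H2O2. Libraries 7, 8, 9 and 10, used for comparison, all had Wnt3a at 20 ng/mL and 100 uM H2O2, with scramble, FoxO1, FoxO3 and both siRNAs in that order. Libraries 1 and 2 had no siRNA and no H2O2, with diluting buffer or with Wnt3a. All cells carried the same genetic background, labelled as a mixed strain of N2 FVB mice with TbRII floxed alleles crossed to the Immorto-mouse. That mouse supplies a temperature-sensitive immortalizing gene driven by an interferon-inducible promoter, so the cells grow in the permissive state and differentiate after a shift in temperature. Cells were transfected at 33 °C and moved to 37 °C with interferon gamma removed. The labels do not say whether the floxed alleles had been recombined, and siRNA sequences and doses were not used here.

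FoxO1 and FoxO3 are forkhead transcription factors that AKT phosphorylates and keeps out of the nucleus when insulin or growth factors signal. In the nucleus they bind the motif GTAAACA and act on genes of stress resistance, metabolism, autophagy and cell cycle arrest. They also bind beta-catenin, which Wnt ligands such as Wnt3a stabilise and which otherwise works with TCF and LEF factors. The authors compared the joint siRNA without and with oxidative stress.

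Values were FPKM, fragments scaled by transcript length and library size, and ratios are log2((a + 1)/(b + 1)) of FPKM, written 4/3 for library 4 over library 3. Neither Foxo1 nor Foxo3 is in the authors' list, so their levels in libraries 3 and 4 were not analysed here and the knockdown in library 4 could not be checked. In the complete table for the pair under H2O2, Foxo1 had 7.95 FPKM in library 7 and 4.67 in library 10, a log2 ratio without pseudocount of -0.77, which passes 0.5. A list that holds every gene past 0.5 in both pairs would therefore hold Foxo1 had its 4/3 ratio also passed 0.5. Foxo3, at 19.7 and 17.4 FPKM, did not pass in 10/7. Of 8 defining proximal tubule genes looked up in library 7, Aqp1, Lrp2 and Slc5a12 had FPKM of 1 or more, at 14.3, 14.0 and 1.04, while Cubn, Slc34a1, Slc5a2, Slc22a6 and Hnf4a were below 1, with Slc34a1, Slc22a6 and Hnf4a listed at 0. As a guide to how far 2 libraries differ over all genes, the robust spread of 10/7 was 0.245 at 1 to 5 FPKM, 0.150 at 5 to 20 FPKM and 0.111 at 20 FPKM and above. The same spread for 4/3 needs genes outside the list and was not analysed here.

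Of the 266 genes, 147 were higher (55.3%) and 119 lower (44.7%) in library 4. The higher ones had a median ratio of 0.49 and the lower ones of -0.50. By at least 2-fold on this scale, a log2 ratio of 1, 6 were higher (2.26%) and 8 lower (3.01%), 14 in all (5.26%). With ratios centred on the median of the 266 genes, 0.30, 2 were higher and 26 lower by that size. The authors' limit left no ratio between -0.24 and 0.25, so this median is no measure of an offset between the libraries. Most of the genes were weakly expressed, with a median of 1.29 FPKM in library 3 and 1.42 in library 4, and 36 reached 5 FPKM in either library. Among those 36, 24 were higher and 12 lower, and of the 9 at 20 FPKM or more, 8 were higher and Dhrs3 alone was lower. The genes nearest the limit of 1 FPKM were Pcdhb20, just inside with 1.00 and 0.673 FPKM in libraries 3 and 4, and Gm35106, just outside with 0.498 and 0.998. In bulk RNA, fewer cells with a transcript and less transcript per cell cannot be told apart.

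**Figure D1:**
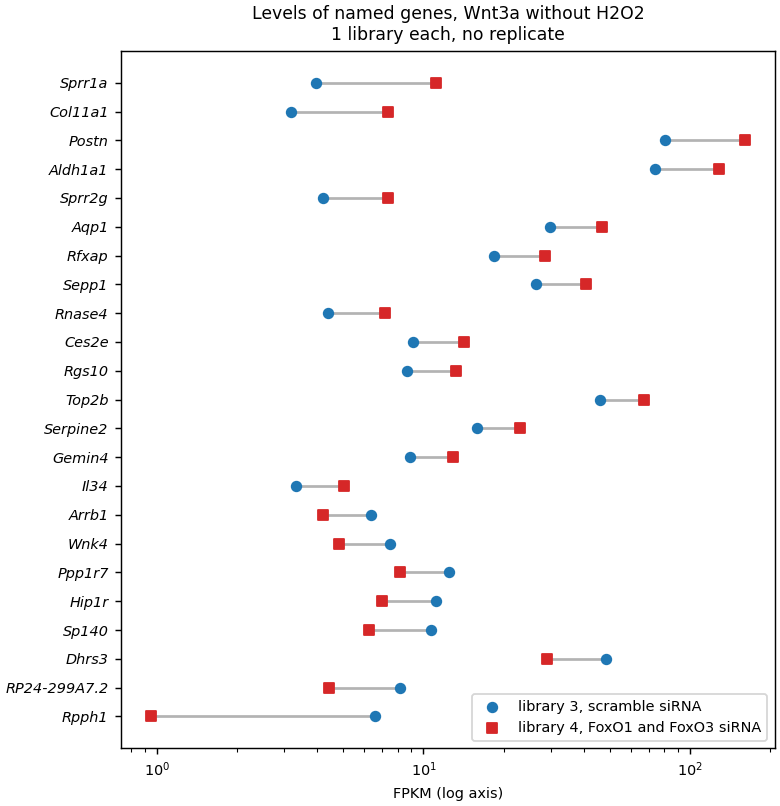
FPKM of the 23 named genes with 5 FPKM or more, on a log axis, with circles for library 3 (scramble siRNA) and squares for library 4 (FoxO1 and FoxO3 siRNA), 1 library each and no error bars. Postn at 80.5 and 160 FPKM was the highest of the genes shown, and Rpph1 had the widest gap downward, from 6.60 to 0.951.

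All 5 members of the matrix and TGF-beta response list at 1 FPKM or more were higher in library 4, against 55.3% of all 266 genes. Their median ratio was 0.62, against 0.30 over all 266 and 0.49 over the higher genes alone. Postn, Serpine2 and Col11a1 reached 5 FPKM, where 66.7% of genes were higher. Postn and Serpine2 also reached 20 FPKM, where 8 of 9 were higher, these 2 included. Postn (mm10 chr3:54361109-54391037), which encodes periostin, a matricellular protein that links collagen and integrins, had 80.5 FPKM in library 3 and 160 in library 4, a ratio of 0.99. It was the most abundant gene of the list other than the short RNA Gm24967, and under H2O2 it stood at 29.1 and 54.6 FPKM, a ratio of 0.89. Col11a1, a fibrillar collagen chain, had 3.18 and 7.33 FPKM, a ratio of 1.00, where the pair under H2O2 had 0.995 and 1.53. Serpine2, an inhibitor of thrombin and of plasminogen activators, had 15.9 and 23.0 FPKM, a ratio of 0.50. All 3 were thus higher in library 4 and in library 10 than in the scramble library of the same pair. Ltbp2, a fibrillin-binding matrix protein, had 0.633 and 1.51 FPKM, a ratio of 0.62. Spon2, a secreted spondin, had 0.766 and 1.30, a ratio of 0.38. A further 9 of the list's 113 genes were among the authors' choice but stayed under 1 FPKM in both libraries. Of these, 6 were higher, among them Col3a1 at 0.0377 and 0.0780 FPKM, and Col5a3, Lama4 and Mmp17 were lower. The other genes of the list were not analysed here in this pair. Col3a1 was also the 1 gene of 11 fibroblast markers in the authors' list. The leukocyte marker Ptprc and the endothelial marker Tek were likewise in it, at 0.0250 and 0.0537 and at 0.0120 and 0.0359 FPKM in libraries 3 and 4. No marker of those cell types reached 1 FPKM in the list, and markers outside it were not analysed here in this pair. Among markers with values above 0 in libraries 7 and 10, 3 of 7 leukocyte, 1 of 5 fibroblast and 0 of 3 endothelial ones reached 5 FPKM there. The markers in the list therefore do not show whether such cells were present.

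Retinoid genes differed in both directions. Retinal is made from retinol, oxidised to retinoic acid by ALDH1A enzymes, carried by binding proteins and broken down by CYP26 enzymes. Aldh1a1 (chr19:20492715-20643465), which makes retinoic acid, had 73.6 FPKM in library 3 and 128 in library 4, a ratio of 0.79. Dhrs3 (chr4:144892827-144928209), which reduces retinal back to retinol, had 48.1 and 28.9 FPKM, a ratio of -0.71, and was the lower gene with the highest level. Cyp26b1, which degrades retinoic acid, had 1.49 and 2.69 FPKM, a ratio of 0.57. Crabp2, which carries retinoic acid to its nuclear receptors, had 1.11 and 0.723 FPKM, a ratio of -0.29. Of the 4 members, 2 were thus higher and 2 lower, with a median ratio of 0.14. All 4 had the same sign in 10/7, against 62.8% of all 266 genes, with ratios of 0.73 for Aldh1a1, -0.63 for Dhrs3, 0.24 for Cyp26b1 and -0.48 for Crabp2. Aldh1a1 and Dhrs3 are among the 9 genes at 20 FPKM or more, all 9 of which had the same sign. Aldh1a1 has a near-identical relative, Aldh1a7, and how reads of such pairs were divided is not stated. Another 3 retinoid genes of the list, Aldh1a3, Dhrs9 and Rdh1, were below 1 FPKM in both libraries.

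Promoters were searched for the FoxO motif GTAAACA on both strands, in windows from 250 bases before to 50 after the RefSeq start sites (GRCm38.p6). Of the 266 genes 125 had such a window, 153 windows in all, and 3 of these held the motif, 1.96%, against 3.65% of all 32851 windows. The share was 1.11% among windows of the higher genes and 3.17% among those of the lower genes, both below that of all promoters. The TCF and LEF motif ATCAAAG, searched the same way, was in 5 windows, 3.27%, against 3.73% of all, and neither motif contains the other. The 3 windows with GTAAACA are shown because the siRNAs target FoxO factors, and a match of letters is no evidence of binding. Dhrs3 is the 1 gene of the 3 above 5 FPKM. Frat2, a GSK3-binding protein of the Wnt pathway, had 0.985 and 1.47 FPKM in libraries 3 and 4, and Rnf39, a RING finger protein, had 1.03 and 0.588. Both were named for the motif, after their values were seen. All 3 had the same sign in 10/7, at -0.63 for Dhrs3, 0.30 for Frat2 and -0.40 for Rnf39. The capitals mark the motif, read as GTAAACA in Dhrs3 and as its reverse complement TGTTTAC in the other two, each window 5′ to 3′ on the strand of its gene. Counted from the RefSeq start site, the motif begins at -6 in Dhrs3, at -2 in Frat2 and at -197 in Rnf39.
Dhrs3, chr4:144892887-144893186, plus strand: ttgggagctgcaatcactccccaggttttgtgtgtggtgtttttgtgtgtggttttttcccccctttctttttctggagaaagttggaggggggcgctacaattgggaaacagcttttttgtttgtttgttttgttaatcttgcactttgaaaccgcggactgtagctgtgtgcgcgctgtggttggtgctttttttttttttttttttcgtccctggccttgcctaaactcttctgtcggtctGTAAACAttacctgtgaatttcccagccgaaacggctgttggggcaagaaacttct
Frat2, chr19:41848083-41848382, minus strand: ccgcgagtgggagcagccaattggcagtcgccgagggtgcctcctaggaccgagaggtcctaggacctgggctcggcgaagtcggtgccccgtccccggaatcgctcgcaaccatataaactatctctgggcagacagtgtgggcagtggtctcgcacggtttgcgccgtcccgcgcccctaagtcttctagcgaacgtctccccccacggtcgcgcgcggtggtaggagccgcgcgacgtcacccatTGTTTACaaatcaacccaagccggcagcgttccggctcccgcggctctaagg
Rnf39, chr17:36942801-36943100, plus strand: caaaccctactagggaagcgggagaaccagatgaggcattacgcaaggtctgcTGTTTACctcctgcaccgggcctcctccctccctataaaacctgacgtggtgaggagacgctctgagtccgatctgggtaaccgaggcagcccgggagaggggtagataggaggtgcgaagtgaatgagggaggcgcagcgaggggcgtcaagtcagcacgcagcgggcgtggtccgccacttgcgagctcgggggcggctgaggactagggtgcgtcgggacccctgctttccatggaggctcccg

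The 4 proximal tubule genes of the list at 1 FPKM or more, of 72 looked up, were all higher in library 4, against 55.3% of all 266 genes, with a median ratio of 0.63. Aqp1 and Ces2e reached 5 FPKM, where 66.7% of genes were higher. Aqp1 (chr6:55336432-55348555), the water channel of the proximal tubule and descending limb, had 29.9 and 46.7 FPKM in libraries 3 and 4, a ratio of 0.63, and 14.3 and 23.5 FPKM in libraries 7 and 10, a ratio of 0.68. Ces2e and Ces2g, carboxylesterases that hydrolyse ester and amide drugs and lipids, lie 27.0 kb apart on chromosome 8. Ces2e had 9.15 and 14.1 FPKM, a ratio of 0.58, and Ces2g had 2.05 and 4.32 FPKM, a ratio of 0.80. Both were also higher in library 10 than in library 7, at ratios of 0.73 and 0.58. Slco1a6, an organic anion transporter, had 1.71 and 3.21 FPKM, a ratio of 0.63, but a ratio of -0.52 under H2O2. The other 4 list members that the authors chose, the glucose transporter Slc5a2, the phosphate transporter Slc34a2, the amino acid transporter Slc7a8 and Cyp27b1, which activates vitamin D, were below 0.2 FPKM in both libraries, and of these Cyp27b1 was lower and the other 3 higher in library 4. Most genes of this list, 64 of 72, were not in the authors' choice, and their levels in libraries 3 and 4 were not analysed here.

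Among antioxidant genes, Sepp1 and Gsta4 were higher and Gsta3 lower in library 4. Sepp1, the plasma carrier of selenium, had 26.3 and 40.7 FPKM in libraries 3 and 4, a ratio of 0.61. In the pair under H2O2 it had 55.8 and 174 FPKM, a ratio of 1.62, while its 8/7 and 9/7 ratios were -0.79 and -0.45. It was thus higher with both siRNAs in both pairs and lower in each library labelled with 1 siRNA. Gsta4 and Gsta3 are glutathione S-transferases. Gsta4 had 1.38 and 2.29 FPKM, a ratio of 0.46, and Gsta3 1.37 and 0.891 FPKM, a ratio of -0.32, with ratios of 0.30 and 0.65 under H2O2. The sign was the same in both pairs for Sepp1 and Gsta4 and opposite for Gsta3.

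**Figure D2:**
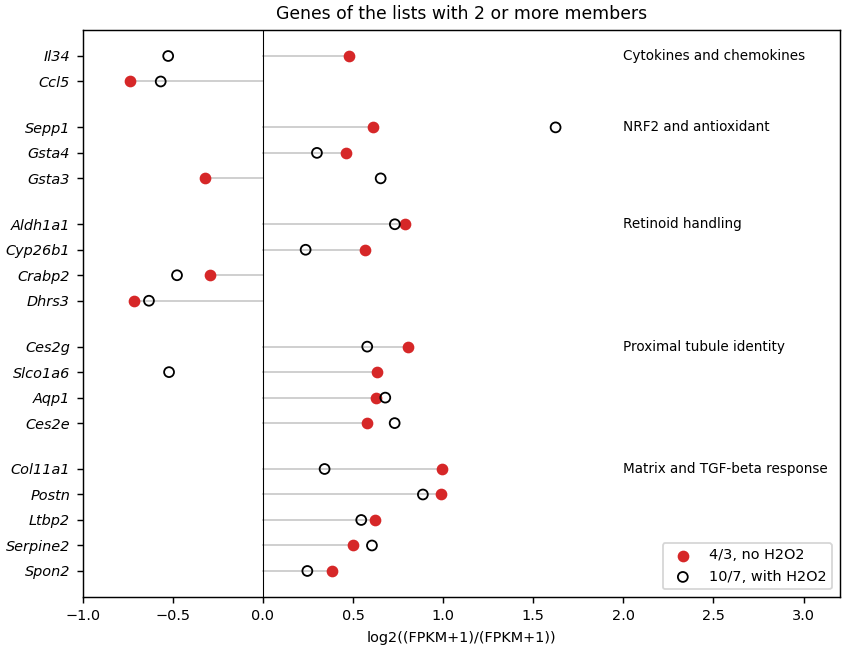
Ratios, as log2 of (FPKM + 1) over (FPKM + 1), of genes described from the 5 gene lists with at least 2 members at 1 FPKM or more, with filled circles for 4/3 (no H2O2) and open circles for 10/7 (with H2O2), each from single libraries without error bars. Filled circles of the matrix and proximal tubule lists all lie to the right of 0, and the open circle of Slco1a6 lies to the left.

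Of 58 cytokine and chemokine genes 7 were in the authors' choice. That is 16.7% of the 42 with values above 0 in libraries 7 and 10, against 9.76% of all 16781 such genes. The same share was 29.2% for retinoid, 22.9% for proximal tubule, 14.9% for matrix and 7.35% for interferon-stimulated genes. It was 2.27% for FoxO target and 5.56% for Wnt target and feedback genes. These shares mix levels. Under 1 FPKM in libraries 7 and 10 it was 28% of all genes. There the cytokine, retinoid, proximal tubule, matrix and interferon lists had 25%, 50%, 21.1%, 29.4% and 25%. At 5 FPKM or more it was 0.418% of all genes, and these lists held 1 of 21, 2 of 11, 3 of 10, 2 of 51 and 0 of 39. Of the 7 cytokine and chemokine genes, Ccl5 and Il34 reached 1 FPKM in library 3 or 4. Below that level Cxcl2 and Tnfsf15 were higher and Csf3, Il16 and Il24 lower. Ccl5, a chemokine that draws T cells and monocytes, had 3.53 and 1.72 FPKM, a ratio of -0.74, and 11.6 and 7.49 FPKM under H2O2, a ratio of -0.57. Il34, a ligand of the macrophage growth factor receptor, had 3.34 and 5.04 FPKM, a ratio of 0.48, against -0.53 in 10/7. Ifit1bl1 was the 1 member of 71 interferon-stimulated genes at 1 FPKM or more, with 2.06 and 1.42 FPKM, a ratio of -0.34. Another 4 interferon-stimulated genes were in the authors' choice below 1 FPKM, 2 of them higher in library 4, Apol9b and Oasl1, and 2 lower, Trim30d and Zbp1.

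Of the remaining higher genes at 5 FPKM or more, Sprr1a had the largest ratio of those named. Sprr1a and Sprr2g encode small proline-rich proteins of the cornified envelope of squamous epithelia and lie 109 kb apart on chromosome 3. Sprr1a had 3.94 FPKM in library 3 and 11.2 in library 4, a ratio of 1.30, and Sprr2g had 4.19 and 7.39 FPKM, a ratio of 0.69. Both were higher in library 10 than in library 7 too, at 0.38 and 0.47. Top2b, the topoisomerase II that relaxes DNA in non-dividing cells, had 45.9 and 66.9 FPKM, a ratio of 0.53. Rfxap, a subunit of the RFX complex that drives MHC class II genes, had 18.3 and 28.7 FPKM, a ratio of 0.62. Rgs10, which speeds GTP hydrolysis by G proteins, had 8.68 and 13.3 FPKM, a ratio of 0.56. Rnase4, a secreted ribonuclease, had 4.39 and 7.19 FPKM, a ratio of 0.60. These 4 had ratios from 0.58 to 0.69 in 10/7, close in size to their 4/3 ratios. The authors' limit of 0.5 in both pairs bounds both sizes from below, so this closeness is no separate result. Gemin4, part of the SMN complex that assembles spliceosomal particles, had 8.86 and 12.9 FPKM, a ratio of 0.49, against -0.75 in 10/7. Gemin4 shares 91.3% of its exonic bases with other genes, mainly Glod4 on the same strand, and is uncertain for that reason.

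Of the lower genes at 5 FPKM or more, Rpph1 had the lowest ratio. Rpph1 (chr14:50807449-50807767) is the RNA of ribonuclease P, which trims transfer RNA precursors, and had 6.60 FPKM in library 3 and 0.951 in library 4, a ratio of -1.96. It had -1.34 in 10/7 and -1.21 in 9/7 but 0.14 in 8/7. Its annotated exon is 319 bases long and shares 73.0% of them with other genes, mainly Ccnb1ip1, so its values are uncertain. Hip1r, a clathrin and actin adaptor, had 11.2 and 7.00 FPKM, a ratio of -0.61. Ppp1r7, a regulator of protein phosphatase 1, had 12.4 and 8.16 FPKM, a ratio of -0.55. Arrb1, beta-arrestin 1, had 6.36 and 4.22 FPKM, a ratio of -0.50. These 3 were lower in 10/7 as well, at -0.57, -0.60 and -0.59. RP24-299A7.2, a clone-named gene that shares 24.7% of its exonic bases with other genes, mainly Spp1 on the same strand, had 8.16 and 4.41 FPKM, a ratio of -0.76. Sp140, a chromatin reader of nuclear bodies, had 10.7 and 6.24 FPKM, a ratio of -0.69, against 0.49 in 10/7. Wnk4, a kinase that controls salt transporters of the distal nephron, had 7.51 and 4.81 FPKM, a ratio of -0.55, against 0.52 in 10/7. Sp140 shares 26.5% of its exonic bases with other genes, mainly Gm17017 on the opposite strand, from which its reads cannot be told apart if counting ignored strand.

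The same siRNAs were compared with scramble in the pair under H2O2, which shares no library with libraries 3 and 4. The authors chose the list on the size of both ratios and not on their sign, so the sign is a measure that the choice did not fix. Of the 266 genes 167 had the same sign in 4/3 and 10/7 (62.8%), 95 of them higher in both and 72 lower in both, and 99 had opposite signs. Over all 1637 genes of the list the share was 53%. It was larger at higher levels, from 700 of 1371 genes (51.1%) under 1 FPKM to 138 of 230 (60%) at 1 to 5 FPKM, 20 of 27 (74.1%) at 5 to 20 FPKM and 9 of 9 at 20 FPKM or more. Those 9 were Postn, Aldh1a1, Aqp1, Rfxap, Sepp1, Top2b and Serpine2, which were higher in both, Dhrs3, which was lower in both, and Gm24967. Gm24967 is an annotated small nuclear RNA, with 94.5 and 162 FPKM in libraries 3 and 4, and ratios of 2.89 in 8/7 and -4.67 in 9/7.

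**Figure D3:**
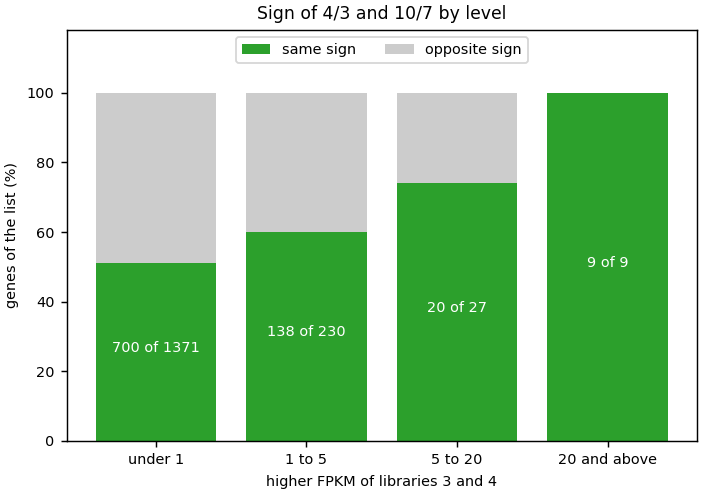
Share of the listed genes, in percent, whose 4/3 and 10/7 ratios had the same sign (lower bar part) or opposite signs (upper part), by the higher FPKM of libraries 3 and 4. The share grows from 51.1% under 1 FPKM to 9 of 9 genes at 20 FPKM or more.

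**Figure D4:**
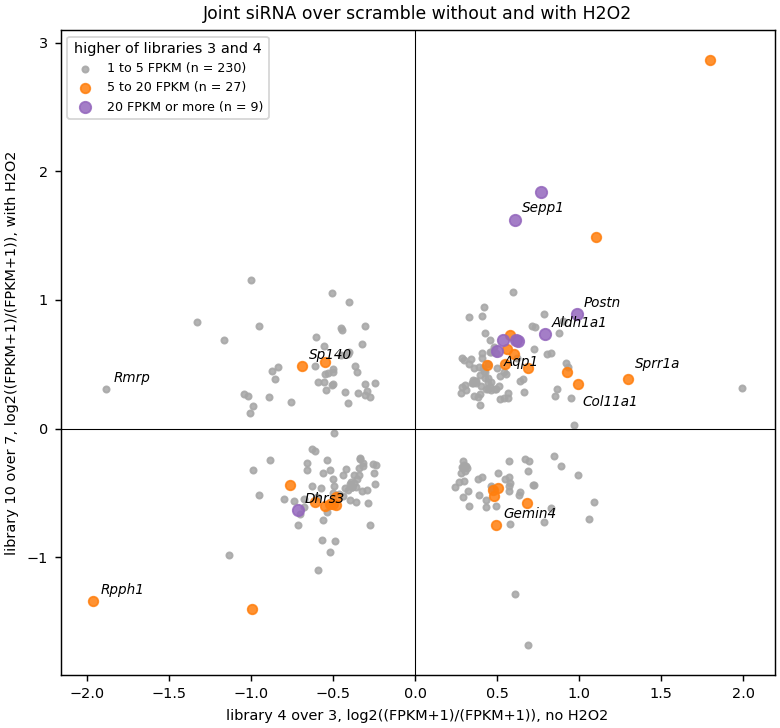
Ratio of library 4 over library 3 without H2O2 against that of library 10 over library 7 with H2O2 for the 266 genes, both as log2 of (FPKM + 1) over (FPKM + 1), with colour and size by level. Genes at 20 FPKM or more all lie at the upper right or lower left, and the empty band beside the vertical line comes from the limit of 0.5 on the ratio without pseudocount.

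The reverse view starts from 10/7. In the complete table, 170 of 9323 genes that reached 5 FPKM in library 7 or 10, with neither value at 0, passed a log2 ratio of 0.5 in 10/7 (1.82%). Of these 170, 39 were in the list (22.9%), and the other 131 were not. At 20 FPKM or more, 36 of 5187 genes passed 0.5 (0.694%), and 10 of them were in it. At 1 FPKM or more, 834 of 11954 passed (6.98%), of which 285 were in it. At any level 3650 of 16781 passed (21.8%) and 1637 of them were in it, 44.8%, so the share in the list was larger where weakly expressed genes were counted.

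Libraries 8 and 9 were not used in choosing the list, but library 7, their control, was. Among the 36 genes at 5 FPKM or more, 25 had the sign of 4/3 in 8/7 and 25 had it in 9/7. Over all 266 genes the counts were 163 (61.3%) and 161 (60.5%). In the ratio of library 9 over library 8, formed by subtracting the 8/7 ratio from the 9/7 ratio so that library 7 cancels apart from the scaling of each table, 131 of 266 genes (49.2%) and 22 of the 36 had the sign of 4/3. Aldh1a1 had ratios of 0.40 in 8/7 and 1.68 in 9/7, Aqp1 0.33 and 1.32, Dhrs3 -0.54 and -1.20, and Ces2e 0.01 and 1.03. Postn had 0.13 and 0.85 and Serpine2 0.12 and 0.69. These 6 genes, picked with their values known, thus lay farther from 0 in the library labelled FoxO3 siRNA than in the FoxO1 siRNA library. They did so in the direction of 4/3. Over all genes 9/7 was also wider, with a robust spread of 0.143 against 0.0995 in 8/7 at 20 FPKM and above. Arrb1 had -0.73 in 8/7 and -0.35 in 9/7, the other order, as had Hip1r with -0.34 and -0.22 and Rfxap with 0.21 and 0.05. Col11a1 had 0.40 in 8/7 and -0.14 in 9/7. Over all genes with 1 FPKM or more, 2.68% passed 0.58 either way in 8/7 and 4.53% in 9/7.

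**Figure D5:**
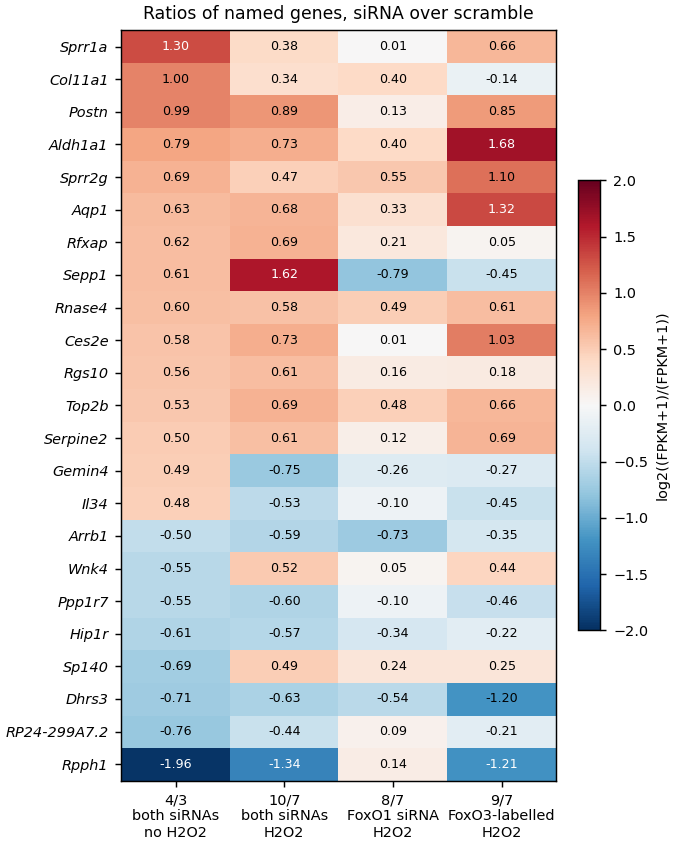
Ratios, as log2 of (FPKM + 1) over (FPKM + 1), of the 23 named genes at 5 FPKM or more in 4/3, 10/7, 8/7 and 9/7, with red for higher and blue for lower than the scramble library, from single libraries. The last 3 columns share library 7. Sepp1 is higher in both joint siRNA columns, at 0.61 and 1.62, and lower in 8/7 and 9/7.

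Genes higher with Wnt3a than with diluting buffer were looked for among the 266. The authors' list of 1852 genes above a log2 ratio of 0.5 in library 2 over library 1 held 63 of them, which is 23.7% of the 266 and 3.40% of the 1852. The same list held 26.7% of the 1371 genes under 1 FPKM in libraries 3 and 4, and 4.49% of all genes at 1 FPKM or more in libraries 7 and 10, or 13.3% of those at 1 to 5 FPKM. That list also holds libraries 5 and 6, without and with Wnt3a under H2O2 and no siRNA, whose ratios were not used here. By its label it joins both pairs, so its genes may have been chosen on both. It need not hold every gene higher with Wnt3a in library 2 over library 1. The 266 genes were themselves chosen on ratios of other pairs, and a link of Wnt3a with the siRNAs was not tested. In 4/3, 33 of the 63 were higher (52.4%) and 30 lower, near the 55.3% of all 266. Aldh1a1 had a ratio of 0.82 in 2/1, and Serpine2 one of 0.42, and both were higher in library 4. Libraries 2 and 3 both had Wnt3a and no H2O2, without siRNA and with scramble siRNA. Aldh1a1 had 13.4 and 73.6 FPKM in them, Serpine2 4.98 and 15.9, Sp140 7.80 and 10.7, and Gemin4 12.2 and 8.86. The 2/1 and 4/3 ratios thus start from different levels, and the difference between libraries 2 and 3 was not tested. Ccl5, with 0.44 in 2/1, and Sp140, with 0.47, were lower in library 4. Aebp1, a matrix-associated carboxypeptidase-like protein outside the matrix list and chosen after its values were seen, had 0.55 in 2/1 and 4.03 and 2.65 FPKM in libraries 3 and 4, a ratio of -0.46. Of 42 Wnt target and feedback genes, Lef1 and Sfrp1 were in the authors' siRNA list of 1637 genes, both below 0.2 FPKM in libraries 3 and 4. Axin2, the usual readout of beta-catenin activity, was not in that siRNA list.

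Of the 29 gene lists 21 had no member at 1 FPKM or more. The authors' choice held 28% of all genes under 1 FPKM in libraries 7 and 10, 9.35% of those at 1 to 5 FPKM and 0.418% of those at 5 FPKM or more. Of 49 known FoxO targets, Trim63, a muscle ubiquitin ligase, was the 1 gene in the authors' choice, at 0.0227 and 0.0591 FPKM. Of the 44 FoxO targets with values above 0 in libraries 7 and 10, 34 were at 5 FPKM or more there. The lists of cell cycle, p53 target and apoptosis, NF-kB, cholesterol synthesis, heat shock, tubular injury, clock, distal nephron and RNA interference genes, 9 in all, had no gene in the authors' choice at any level. Of the 68 cell cycle genes, for example, 65 were at 5 FPKM or more in libraries 7 and 10, so an empty list is near the share of all genes at that level. A gene outside that choice had a log2 ratio within 0.5 in at least 1 of the 2 pairs, or a value at 0, if the choice was complete. Ankrd37, a hypoxia-induced ankyrin repeat gene, was the 1 glycolysis and hypoxia member, with 2.86 and 1.11 FPKM, a ratio of -0.87, against 0.45 in 10/7. Ankrd37 shares 26.4% of its exonic bases with other genes, mainly Lrp2bp on the opposite strand, and is uncertain for that reason. Gdf6, a BMP family ligand, had 0.120 and 1.04 FPKM, a ratio of 0.87, and 0.31 in 10/7. The 4 genes that the authors set apart in their own sheet, Pagr1a, Hpx, Cyp27b1 and Prkcz, all lay below 0.3 FPKM in libraries 3 and 4. Hpx, the heme carrier hemopexin, had 0.248 and 0.0352 FPKM, and Pagr1a had 0.0210 and 0.00197. They were lower in library 4 and higher in library 10 than in the scramble library of each pair, and the authors chose them on these libraries.

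By annotated class (GENCODE M21), 152 of the 266 genes were protein coding, 58 pseudogenes, 50 long noncoding or unclassified and 4 other short RNAs, and 2 had no entry. The same sign in both pairs was found for 96 of the 152 protein-coding genes (63.2%), 42 of the 58 pseudogenes (72.4%) and 25 of the 50 long noncoding ones (50%). Processed pseudogenes can take reads of their parent genes, and 40 of the 266 shared over 20% of their exonic bases with another gene. Rmrp, the RNA of ribonuclease MRP, and Terc, the telomerase RNA, were named for their class after their values were seen. Rmrp had 4.12 and 0.388 FPKM, a ratio of -1.88, and its exon is shared in full with a second Rmrp entry on the same strand, so its values are uncertain. Terc had 0.184 and 1.29 FPKM, a ratio of 0.95. In 10/7 Rmrp had a ratio of 0.31 and Terc one of 0.24.

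The 14 genes past a log2 ratio of 1 were mostly clone-named or predicted genes, which the rule for naming left out, and those given here beyond Sprr1a and Rpph1 were named after their values were seen. Gm10226, a short predicted protein-coding gene, had the highest ratio, 1.99, with 0.494 FPKM in library 3 and 4.95 in library 4, and 0.32 in 10/7. Gm20257, an unprocessed pseudogene, had 3.30 and 13.9 FPKM, a ratio of 1.80, and 1.86 and 19.9 FPKM under H2O2, a ratio of 2.87. It was higher than scramble in every comparison, with 2.10 in 8/7 and 1.53 in 9/7. B230307C23Rik had 5.14 and 12.2 FPKM, a ratio of 1.10, and ratios of 1.49, 0.47 and 0.98 in 10/7, 8/7 and 9/7. Etaa1os, an antisense RNA, had 2.21 and 0.278 FPKM, a ratio of -1.33, against 0.83 in 10/7. The mitochondrial ATP synthase genes mt-Atp8 and mt-Atp6, which share a transcript, were lower in library 4 and higher in library 10. mt-Atp8 had 3.11 and 1.06 FPKM, a ratio of -0.998, against 1.15 in 10/7, and mt-Atp6 had 1.78 and 0.824 FPKM, a ratio of -0.61, against 0.71. mt-Atp8 shares 21.1% of its exonic bases with mt-Atp6. Gm28661, an unprocessed pseudogene with 681 exonic bases, the length of mt-Atp6, had ratios of -0.45 in 4/3 and 0.57 in 10/7. How reads were divided among such genes is not stated, so these values are uncertain. Cd55, which protects cells from complement, and Cpz, a secreted Wnt-binding carboxypeptidase, were higher in both pairs. Like mt-Atp8, mt-Atp6 and Gm28661, they did not pass 1 and were named after their values were seen. Cd55 had 0.577 and 1.90 FPKM, a ratio of 0.88, with 0.74 in 10/7, 0.16 in 8/7 and 1.65 in 9/7. Cpz had 1.41 and 3.00 FPKM, a ratio of 0.73, with 0.79 in 10/7, 0.02 in 8/7 and 1.15 in 9/7.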

How the data were processed

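RNA was sequenced as 100 nt reads on a HiSeq 2500, per the labels. Per the submitters' processing notes, mm10, TopHat2, Cufflinks and Cuffdiff were used, without versions, settings or strandedness. The deposited values were FPKM per gene and library. The authors' deposited log2 ratios were not printed, and ratios were computed from FPKM. FPKM of different pairs may be scaled differently, so levels were set against each other within pairs. Total counts are not given, so depth is unknown and no counting interval was computed.

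Ratios used a pseudocount of 1 FPKM in Python 3.11.15 with pandas 2.3.3, and understate changes of low genes. The ratio rule was tested on simulated data with known changes and less noise than the spread between these libraries. That checks the computation and not how reliable the ratios are. With 1 library per group no test was made. Foxo1 and Foxo3 were named first, then the 15 highest and 15 lowest ratios at 5 FPKM or more, the 10 same-sign and 10 opposite-sign genes each way, up to 6 members per gene list, and the genes the authors set apart. Left out of that ranking were small RNA, predicted, Rik, pseudogene (-ps), histone and mitochondrial symbols. The genes and lists were chosen with earlier results of these data known. Coordinates and exon overlaps came from GENCODE M21 and promoters from RefSeq. A few genes are not reported here.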

Additional observations from a re-analysis of the deposited data

Results flagged for a closer look

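Of the 35 named genes, 28 had the same sign in 4/3 and 10/7 and 7 had opposite signs, and those 7 are listed here because the joint siRNA ratio without H2O2 and the one with H2O2 pointed in opposite directions. With 1 library in each group, the difference between the pairs was not tested, and at any level 770 of the 1637 listed genes had opposite signs. The difference of the 4/3 ratio minus the 10/7 ratio was -1.32 for Ankrd37, -1.18 for Sp140, -1.07 for Wnk4 and -0.98 for Gsta3, which were lower in library 4 and higher in library 10. It was 1.24 for Gemin4, 1.16 for Slco1a6 and 1.00 for Il34, which were higher in library 4 and lower in library 10. None of the 7 reached 20 FPKM in library 3 or 4. Ankrd37, Sp140 and Gemin4 share over 20% of their exonic bases with other genes, so their values are uncertain.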

How the results depend on the processing

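The count of genes past a log2 ratio of 1 depended on the pseudocount. It was 14 with 1 FPKM, 77 with 0.1 FPKM and 91 with none. It was 4 with at least 5 FPKM, 4 without small RNA, predicted, Rik, histone, mitochondrial and multi-symbol entries, and 28 with ratios centred on the members' median of 0.30, of which 2 were higher and 26 lower. That median lies beside the gap that the authors' limit left among small ratios and does not measure an offset between the libraries. The share of higher genes was 55.3%, and 66.7% at 5 FPKM or more. The share with the same sign in 4/3 and 10/7 was 62.8%, 53% with no filter on level and 80.6% at 5 FPKM or more. Under the other settings it ran from 62.6% to 65.7%, and 64.2% was the value without genes that share over 20% of their exonic bases, a setting chosen after seeing the data. The sign of a ratio cannot change with the pseudocount. Centring lowered every ratio by 0.30, less than the smallest ratio among the higher named genes, 0.38 for Spon2. The signs of the 35 named genes were therefore not tested by these settings. With 0.1 FPKM, no pseudocount and centring, 18, 19 and 35 of them moved by 0.1 or more. No paired analysis was possible because each group has 1 library and the labels give no replicate numbers that pair libraries. A fit over both pairs with H2O2 as a block was not run, since libraries 3 and 4 are held here for genes chosen on these ratios. With 1 library per group none was left out, and the unknown depth limits the genes at 1 to 5 FPKM most.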
